A study of Brassica napus with 12 samples.

Results

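The drought response of flowers was followed in G67, the rapeseed (Brassica napus) genotype with a high phenolic content. Its 6 RNA-seq libraries, 3 from control plants and 3 from droughted plants, were taken by their sample labels from the 12 libraries of the series, and the 998 genes that the deposited files list were compared in all of them. In control pots, watered with sterile water, the relative water content of the soil was held at 30%. In drought pots it was held at 10%, and these received 20% PEG6000 (polyethylene glycol), which lowers the water that roots can take up. Plants of both groups grew in a greenhouse on short days, and the drought began when the flower was visible. The other 6 libraries belong to the low-phenolic genotype G59, under the same pair of treatments. Each group is thus 1 genotype grown in pots, and the labels do not say whether the 3 libraries of a group came from separate plants. The paper's methods mention 4 cDNA libraries in all, but also 3 repeats of the experiment and a harvest per replicate group. Whether the 3 libraries of a group are independent is thus unknown, and p-values measure the spread between these libraries.

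Flowering is a stage at which rapeseed is sensitive to water deficit. In plants, drying soil raises abscisic acid, a hormone that closes stomata and switches on genes for protective proteins, osmolytes and antioxidants, while genes of growth are often turned down. Phenolic compounds belong to the antioxidants. They are made from phenylalanine by the phenylpropanoid pathway, which branches into lignin precursors and, through chalcones, into flavonoids and their sugar conjugates.

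The values are FPKM, that is fragments mapped to a gene, scaled by the authors to its exon length and to all mapped fragments of the library, and they were used as deposited. As only some genes of each library are listed, and without read counts, the sequencing depth was unknown. Apart from 6 candidate genes of the phenolic pathway, the 944 genes with an NCBI number stood in ascending order of that number. RefSeq's gene table for assembly Da-Ae held 7006 genes in the same range of numbers, of which 871 (12.4%) were listed. Outside the candidates, no listed gene had a drought mean between 0.964 and 1.68 times its control mean. The listed genes are therefore no random sample of the genome, and the counts below describe the list. Except for the candidates, the identifiers carry no gene names or descriptions, so genes are given by identifier without a role, and floral marker genes could not be looked up.

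**Figure D1:**
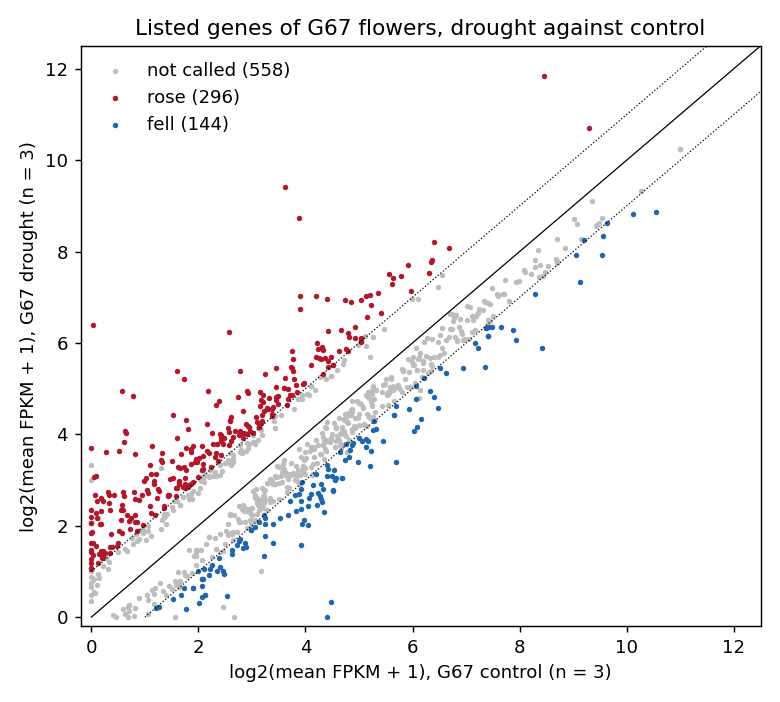
Mean level of each listed gene under control (x axis) and drought (y axis), both as log2(mean FPKM + 1) over 3 libraries of G67. The solid line marks equal levels and the dotted lines a difference of 1 on the log2 scale. The 296 rises lie above the line of equal levels and the 144 falls below it, a few of them within the dotted lines because calls use the mean of log2 values, and an empty band runs beside the solid line.

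The drought libraries were less alike than the control libraries. Across genes, the rank correlation of FPKM was 0.972 to 0.984 between control libraries and 0.936 to 0.966 between drought libraries. Drought replicate 1 stood closest to the controls, with rank correlations of 0.846 to 0.875 across genes, and drought replicate 3 stood farthest, with 0.687 to 0.736. The sum of listed FPKM was 48411 ± 2851 under control and 41856 ± 2346 under drought (SD, n = 3 each), and every drought library lay below every control library (exact permutation test, two-sided, p = 0.1, the smallest that 20 arrangements allow, adjusted p = 0.12 over 6 measures). Genes listed at 0 numbered 28 to 38 in the control libraries and 7 to 11 under drought (exact permutation test, p = 0.1, adjusted p = 0.12). Genes above 1 FPKM numbered 861 to 870 under control and 913 to 920 under drought, while those above 100 FPKM numbered 96 to 105 and 82 to 87 (exact permutation tests, both p = 0.1, adjusted p = 0.12). The share of the sum held by the 10 highest genes of a library overlapped between the groups, at 22.2 to 25.7% under control and 25.65 to 28.8% under drought (exact permutation test, p = 0.2).

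Drought changed many of the listed genes, more of them upwards than downwards by the thresholds of the study. In the paper's own count of G67 DEGs, which is not limited to this list, rises were the smaller part. DEGs (differentially expressed genes) were those that limma, run on log2(FPKM + 1), gave an adjusted p up to 0.05 and that moved by 1 or more on the log2 scale. Of the 998 genes, 440 (44.1%) were DEGs, 296 that rose (29.7%) and 144 that fell (14.4%). The median log2 fold change was 1.43 among the rises and -1.33 among the falls, against -0.38 over all listed genes, and the median standard error was 0.20. Rises of at least 2 on the log2 scale numbered 55, and falls of that size 11. The added 1 makes log2 fold changes (differences of mean log2 values) smaller than the true change where FPKM is low. By the adjusted p alone, 877 genes (87.9%) differed, 421 higher and 456 lower under drought. The 312 genes that were lower by less than 1 on the log2 scale outnumbered the 125 that were higher by less than 1. The surplus of rises among the DEGs cannot be told apart from the choice of rows, since listed rises began at a ratio of 1.68 and listed falls at 0.964. Whether the rows were chosen by this same contrast is not stated in the sources used here. If they were, the p-values, the counts of DEGs and the counts of genes with separate groups are not independent of that choice.

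The size of the surplus of rises depended on scaling. With median-ratio scaling of the 6 libraries, which moved the median log2 difference of all genes from -0.38 to -0.13, 382 genes rose and 87 fell. After quantile normalization 218 rose and 201 fell, and the share of DEGs that rose was thus 81.4% or 52.0% in place of 67.3%. Both scalings here and below rest on the listed genes alone. They may thus absorb the list's own imbalance of higher and lower genes, and they do not tell which share is right. The drought libraries lay wholly above the control libraries in 426 genes (42.7%) and wholly below in 485 (48.6%), so that the groups did not overlap in 911 genes (91.3%). Of the 440 DEGs, 2 had overlapping groups. All the 440 DEGs changed the same way in each of the 3 pairs of libraries with the same replicate number, as did 977 of the 998 genes. In bulk flowers, fewer cells of a type and less RNA per cell cannot be told apart.

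The strongest rises included genes that reached high levels. LOC106353918 had 9.28, 14.8 and 9.77 FPKM in the 3 controls, and drought brought it to 315, 1106 and 627 FPKM. It had the largest rise among genes with a mean of 100 FPKM or more, and its lowest drought value lay far above its highest control value. Its mean FPKM was 60.5 times higher under drought, and the log2 fold change was 5.65 (SE 0.44, limma adjusted p = 0.000276). LOC106348971 followed, with 4.73, 30.7 and 5.72 FPKM under control against 243, 394 and 632 FPKM under drought. Control replicate 2 was the high one, and the pair of replicate 2 differed by 3.64 on the log2 scale where the other pairs differed by 5.41 and 6.56.

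In the class of 10 to 100 FPKM, LOC106349612 and LOC106354022 rose most. LOC106349612 rose from values of 0.08, 0 and 0 FPKM to 38.4, 154 and 55.9 FPKM, and its log2 fold change of 6.10 (SE 0.46) was the largest of all listed genes. LOC106354022 had 0.14, 0.73 and 0.6 FPKM under control against 10.3, 28.2 and 51.8 FPKM under drought. The groups of both genes were far apart, although the drought values of each differed several-fold among themselves. Among genes of 1 to 10 FPKM, LOC106348034 had 0.65, 0.29 and 0.71 FPKM under control against 9.45, 15.9 and 22.2 FPKM under drought (log2 fold change 3.38, SE 0.30). Under 1 FPKM, LOC106353792 had 0, 0.08 and 0 FPKM under control against 0.95, 1.72 and 2 FPKM under drought (log2 fold change 1.29, SE 0.19).

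Falls were mostly smaller than the strongest rises. LOC106352331 was the clearest, with 25.95, 17.1 and 17.5 FPKM under control and 0 listed in the 3 drought libraries (limma adjusted p = 6.27e-05). LOC106353089 had 190.3, 450.2 and 385 FPKM under control against 63.6, 72.3 and 39.2 FPKM under drought. Its mean fell from 342 ± 135 to 58.4 ± 17.2 FPKM (SD, n = 3 each), or -2.48 as log2 fold change (SE 0.37, limma adjusted p = 0.00158). LOC106354101 had 50.3, 55.1 and 46.5 FPKM under control against 13.5, 11.55 and 3.3 FPKM under drought. LOC106346283 had 199.6, 121.9 and 167.3 FPKM under control against 77.9, 26.8 and 24.8 FPKM under drought. In both of these genes drought replicate 1 kept the highest drought value, and the groups did not overlap. LOC106354107 fell from 13.1, 17.8 and 11.45 FPKM to 2.19, 2.52 and 1.24 FPKM, and LOC106353789 from 4.86, 3.11 and 6.5 FPKM to 0.26, 0.82 and 0.05 FPKM. Under 1 FPKM the 2 falls were LOC106348916 (log2 fold change -1.03) and LOC106349433 (-1.02), both near the threshold, and neither was a DEG with median-ratio scaling.

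A few abundant genes carried much of the change in summed FPKM. The 429 genes with a higher mean under drought gained 12540 FPKM together, of which LOC106345884 alone gained 3318 FPKM (26.5%) and the 10 largest gains 50.9%. LOC106345884, the listed gene with the highest mean of the 6 libraries, had 332, 275 and 443 FPKM under control against 3457, 4540 and 3008 FPKM under drought. Its mean was 10.5 times higher under drought, and the log2 fold change was 3.39 (SE 0.24, limma adjusted p = 0.000256). LOC106347282 rose from 452, 614 and 809 FPKM to 1188, 2007 and 1822 FPKM, a ratio of 2.68. Against these gains, the 569 genes with a lower mean differed by -19095 FPKM together, and the 10 largest losses made up 31.3% of this. LOC106352647 lost most, with 1886, 1235 and 1374 FPKM under control against 710, 420 and 263 FPKM under drought (log2 fold change -1.78, SE 0.36, limma adjusted p = 0.00395). LOC106353419 and LOC106353422 held the same values in every G67 library, 2199, 1832 and 2087 FPKM under control against 1414, 1148 and 1094 FPKM under drought. Their log2 fold change of -0.75 (SE 0.16) had an adjusted p of 0.00500 in limma, but neither was a DEG by size. Genes with identical values may share reads, and how the authors split such reads is not given in the sources used here.

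Among the listed genes, the direction of the response shifted with expression level. Genes were put in 4 classes by their mean FPKM over the 6 libraries. The mean was higher under drought in 35 of 57 genes under 1 FPKM (61.4%), in 216 of 401 genes of 1 to 10 FPKM (53.9%), in 161 of 440 genes of 10 to 100 FPKM (36.6%) and in 17 of 100 genes of 100 FPKM and over (17%). The median ratio of the means was 1.90 from 1 to 10 FPKM, 0.735 from 10 to 100 FPKM and 0.65 at 100 FPKM and over. With the empty band of ratios around equal levels, a class median steps across that band when the share of higher genes changes. Whether the choice of rows acted alike at all levels was not tested. The order of these shares was the same with median-ratio scaling (61.4, 54.4, 40 and 23%) and after quantile normalization (61.4, 53.9, 36.6 and 27%). These shares use the direction alone, the classes stayed those of the deposited values, and the empty band left few genes near equal levels. Their order could thus hardly change under either scaling, and its agreement is no separate evidence. The share of the sum of mean FPKM held by the 100 most abundant genes was 67.9% under control and 62.4% under drought.

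**Figure D2:**
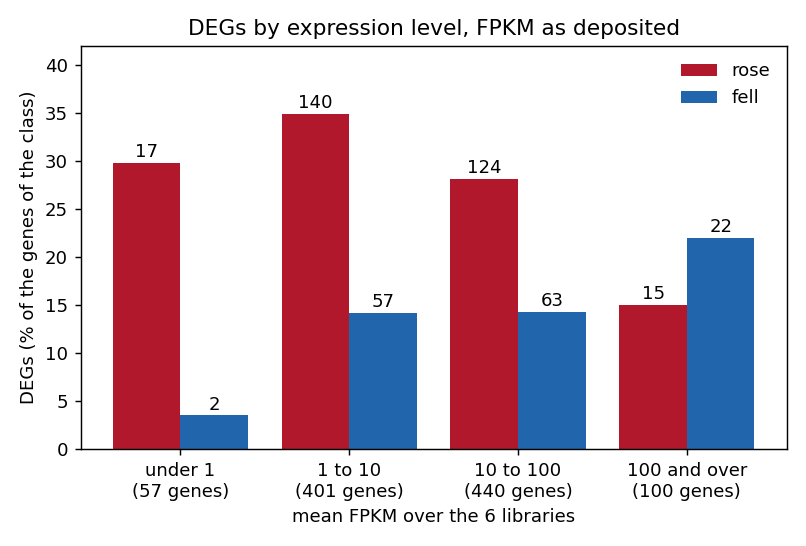
Share of the genes of each level class (x axis, mean FPKM over the 6 G67 libraries) that rose or fell under drought (y axis, percent of the genes of the class), with the number of DEGs above each bar. Rises outnumber falls in the 3 lower classes, and at 100 FPKM and over 22 genes fell and 15 rose.

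Among the DEGs the pattern was the same with the deposited values but did not hold under every scaling. The DEGs that rose numbered 17 of 19 under 1 FPKM, 140 of 197 from 1 to 10 FPKM, 124 of 187 from 10 to 100 FPKM and 15 of 37 at 100 FPKM and over. After quantile normalization, 1 of 10, 87 of 200, 113 of 182 and 17 of 27 DEGs rose, so that the order was turned around. Large ratios were most common at low levels. Under 1 FPKM, 22 of 57 genes had a ratio of at least 4 and 13 more were listed at 0 in the control, while at 100 FPKM and over 3 of 100 genes had a ratio of at least 4. Ratios of 0.25 or less were found in 13 of 57, 29 of 401, 6 of 440 and 1 of 100 genes from the lowest to the highest class. In the lowest class 54 of 57 genes had groups that did not overlap, yet only 19 passed the thresholds. With a pseudocount of 0.1 in place of 1, 54 of them did, 34 rises and 20 falls.

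Genes listed at 0 under control were more numerous than genes listed at 0 under drought. The 3 control libraries were at 0 in 22 genes, and 20 of these were above 0 in all 3 drought libraries. The drought libraries were at 0 in 5 genes, of which 3 were above 0 in every control library. An exact 0 in such files can also be a value that was not estimated, and no fold is given against a group at 0. Drought means of the 20 genes ran from 0.28 to 12.0 FPKM (median 1.71), and 13 of the 20 were DEGs (44.1% over all listed genes), a count that follows in part from how these genes were chosen.

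In LOC106352328, listed next to LOC106352331 as described above, drought replicate 1 was the highest library (limma adjusted p = 0.000432). Its drought mean was the highest of these genes, with 19.65, 8.97 and 7.28 FPKM. LOC106347763 had the next, but its drought values of 2.88, 0.13 and 24.03 FPKM were far from each other. With an adjusted p of 0.0614 in limma it was not a DEG, but it was one with a pseudocount of 0.1 (0.0258), in the fit of all 4 groups (0.0175) and without drought replicate 2 (0.0117). The fit of all 4 groups borrows the spread of G59, whose rows may not stand for the same genes, so it cannot decide a call. LOC106350412 had 0.37, 5.91 and 5.89 FPKM under drought and was a DEG, at an adjusted p of 0.0169 in limma. It was not called when control replicate 1, drought replicate 2 or drought replicate 3 was left out. LOC106347590 had closer drought values, at 1.36, 1.76 and 1.94 FPKM (limma adjusted p = 0.000616). Over the 20 genes the highest drought value was 4.09 times the lowest at the median, against 1.49 times over the listed genes above 0 in every drought library. The 20 genes had low drought levels (median of their means 1.71 FPKM), and the sets were not matched for level.

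**Figure D3:**
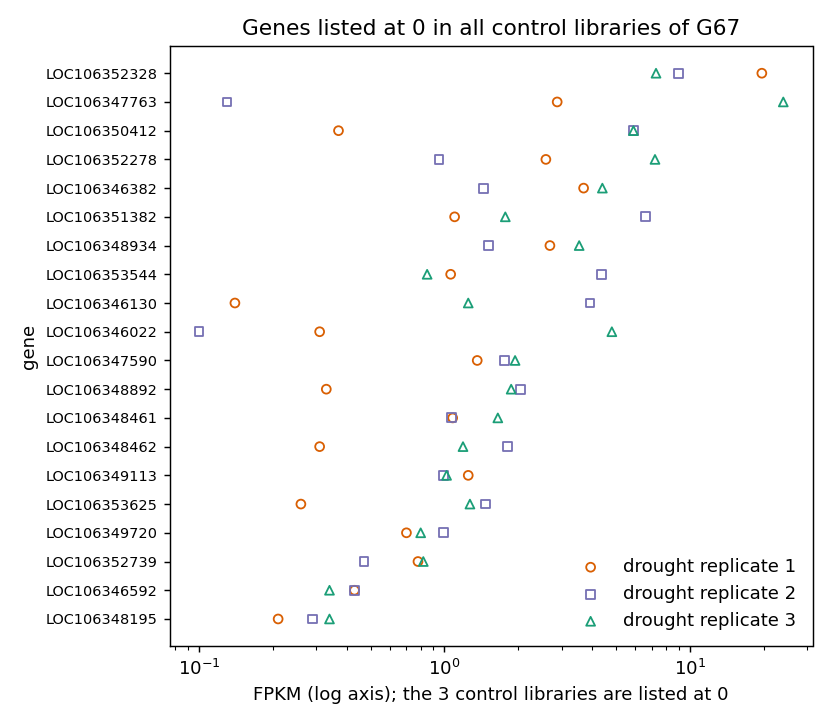
FPKM in each drought library of G67 (x axis, log scale; 1 symbol per replicate) for the 20 genes listed at 0 in all control libraries (y axis). The 3 symbols of a gene spread widely, from 0.13 to 24.03 FPKM for LOC106347763, and lie close together for LOC106347590.

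Of the 3 genes listed at 0 only under drought, LOC106352331 (described above) was a DEG. LOC106353849 had 1.27, 0.29 and 0.29 FPKM under control and LOC106348534 had 0.58, 0.25 and 0.32 FPKM. Both were under the threshold of size, but with a pseudocount of 0.1 both were DEGs (limma adjusted p = 0.00396 and 0.00116). With limits on the means in place of exact zeros, 30 genes were below 0.1 FPKM under control and at 1 FPKM or more under drought, and 4 genes showed the reverse.

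The replicate spread was larger under drought. The SD of log2(FPKM + 1) over 3 libraries had a median of 0.18 under control and 0.25 under drought, and it was larger under drought in 662 of the 998 genes. It was larger in every level class, with medians of 0.064 and 0.17 under 1 FPKM, 0.16 and 0.25 from 1 to 10 FPKM, 0.185 and 0.26 from 10 to 100 FPKM and 0.23 and 0.31 at 100 FPKM and over. By the coefficient of variation, the class under 1 FPKM went the other way, with medians of 45.0% under control and 36.1% under drought. Relative to the mean FPKM, the spread under drought was greatest in the falls. Their median coefficient of variation was 19.6% under control and 42.1% under drought, whereas that of the rises was 21.7 and 24.05% and that of the other genes 12.7 and 16.5%. This measure divides by a drought mean that is low in the falls by their definition. The SD of log2(FPKM + 1) was larger under drought in 104 of the 144 falls and in 206 of the 296 rises.

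**Figure D4:**
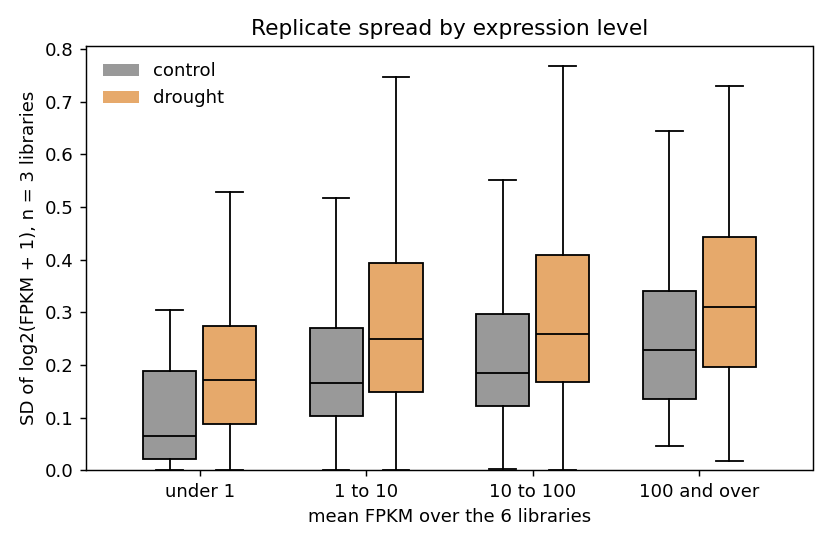
SD of log2(FPKM + 1) over the 3 libraries of a group (y axis) by mean FPKM over the 6 libraries (x axis). Boxes show quartiles over the genes of a class with the median as a line, and whiskers reach 1.5 times the interquartile range. The drought median lies above the control median in each class, 0.25 against 0.16 from 1 to 10 FPKM.

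Some genes owed their place to 1 or 2 libraries. Among genes with a mean of at least 10 FPKM, LOC106352733 had the largest spread, at 31.9, 0.28 and 31.4 FPKM under control against 0.34, 0.25 and 0.19 FPKM under drought. It fell by 3.14 on the log2 scale (SE 1.18, limma adjusted p = 0.0390), while the pair of replicate 2 differed by -0.034 on that scale, and it was not called without control replicate 1 or 3 or without any of the drought libraries. LOC106345167 came next, with 1.12, 3.03 and 2.79 FPKM under control against 10.7, 8.55 and 88.55 FPKM under drought, where replicate 3 was high. At the other end, LOC106345859 had 163, 175 and 170 FPKM under control against 114, 116 and 117 FPKM under drought. Its 3 pairs differed by -0.51, -0.58 and -0.54 on the log2 scale (SE of their group difference 0.13, limma adjusted p = 0.00652). Scaling by median ratios made the difference -0.28 and quantile normalization -0.26, and the limma adjusted p was then 0.127 and 0.128. LOC106348692 had 28.8, 28.7 and 27.0 FPKM under control against 25.5, 26.5 and 24.7 FPKM under drought, with an adjusted p of 0.328 in limma, and its log2 fold change of -0.13 became 0.12 with median-ratio scaling. In all, 12 genes differed by at least 1 on the log2 scale but had an adjusted p above 0.05.

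The drought libraries also differed in the size of their response. Of the 426 genes whose drought libraries lay wholly above the controls, replicate 1 was nearest to the controls in 300, replicate 2 in 80 and replicate 3 in 46. Of the 485 genes wholly below, these numbers were 302, 129 and 54. Direction and size were also read from the other libraries only. The 275 genes at least 1 above the control mean on the log2 scale in drought replicates 2 and 3 were higher by a median of 1.17 in replicate 1. The 141 genes at least 1 below it differed by a median of -0.94 in replicate 1. The same reading gave medians of 1.69 (190 genes) and -1.27 (82 genes) for replicate 2 and of 1.80 (188 genes) and -1.98 (70 genes) for replicate 3, each over its own set of genes. After median-ratio scaling the medians were 1.11, 1.86 and 2.03 for rises and -1.01, -1.12 and -1.79 for falls in replicates 1, 2 and 3.

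**Figure D5:**
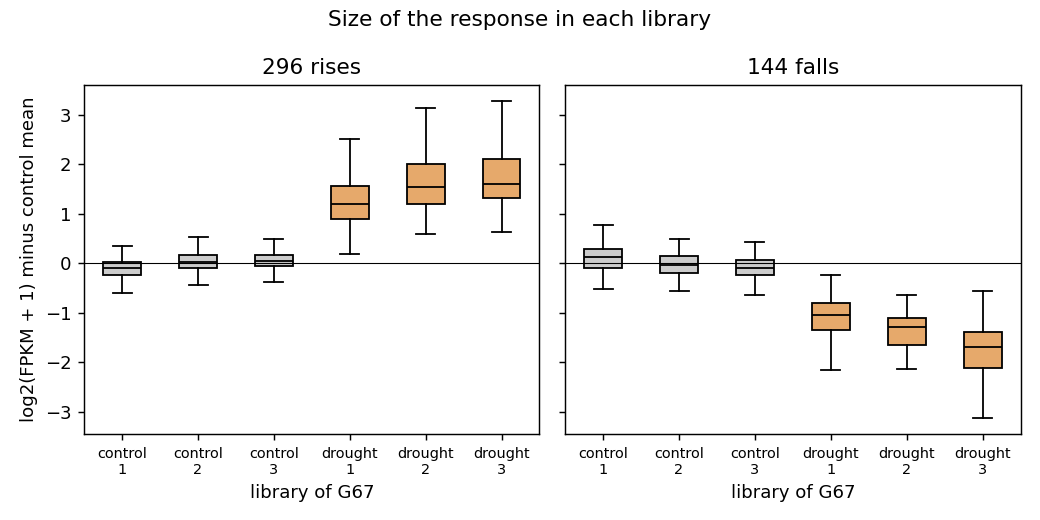
Difference of log2(FPKM + 1) from the control mean (y axis) in each G67 library (x axis) for the 296 rises (left) and 144 falls (right). Boxes show quartiles over genes and whiskers 1.5 times the interquartile range. The medians of the drought libraries are 1.19, 1.53 and 1.61 for rises and -1.05, -1.28 and -1.70 for falls.

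The control libraries also differed along this axis, by less. Control replicate 1 was the lowest control in 245 of the 426 genes that lay wholly higher under drought and the highest in 254 of the 485 that lay wholly lower. Left out in turn, drought replicate 1 gave 521 DEGs (311 rises and 210 falls), and drought replicate 3 gave 352 (255 and 97). The number of genes at least 1 above the control mean on the log2 scale was 207, 302 and 318 in drought replicates 1, 2 and 3, and the number at least 1 below it was 91, 160 and 257.

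The 6 candidate genes of the phenolic pathway lay higher under drought in each same-numbered pair, and 3 of them (CHI, CYP75B137 and UGT89B1) were DEGs, a share close to the 44.1% of all listed genes. As the study picked them with the help of these libraries, they are no independent evidence of direction. UGT89B1, a glucosyltransferase of flavonols, ranked 16 of 998 by log2 fold change, and its pairs differed by 2.31, 3.20 and 3.31. It had 0, 0 and 0.11 FPKM under control against 3.95, 8.16 and 10.04 FPKM under drought. A ratio of its means thus rests on a single control value above 0. PAL1, which opens the phenylpropanoid pathway, ranked 133, but its pairs differed by 1.99, 0.33 and 2.17, and its spread within groups was larger than that of 99.3% of the genes of its level class. It was not a DEG (SE of the log2 fold change 0.67, limma adjusted p = 0.0664). It was one with the replicate number as a block (limma adjusted p = 0.0190), in the fit of all 4 groups (0.0223) and without control replicate 2 (0.00388). The fit of all 4 groups borrows the spread of G59 and cannot decide this call.

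CYP75B137, annotated as a flavonoid monooxygenase, ranked 245 with pair differences of 0.52, 1.24 and 1.65 and an adjusted p of 0.00563 in limma. It was not a DEG after quantile normalization, without control replicate 3 (log2 fold changes 0.83 and 0.91) or in the fit of all 4 groups (limma adjusted p = 0.165, with the same limit). CHI, the isomerase that makes the first flavanone, ranked 274 (log2 fold change 1.05, SE 0.30). It was not called without control replicate 2 or 3 or without drought replicate 1, where the log2 fold change was 0.94, 0.83 and 0.90. CCR1, of the lignin branch, ranked 304 and had the steadiest pairs of the 6, at 1.14, 0.91 and 0.94, with a log2 fold change of 0.9975 (SE 0.18, limma adjusted p = 0.00265), just under the threshold of 1. It was called in 7 of its alternatives, both scalings among them. FLS3, which makes flavonols, ranked 424 with a log2 fold change of 0.51 (SE 0.20, limma adjusted p = 0.0460), which is too small a change to be a DEG.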

How the data were processed

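The authors filtered reads with the NGS QC Toolkit 2.2.3, mapped them to the Darmor-bzh genome and took FPKM from Cufflinks 2.0.0 (its Cuffquant and Cuffnorm programs). The aligner is not given in the sources used here. The deposited FPKM of 998 genes, with 2 decimals, were used unscaled. The series-wide table holds the same numbers (7984 of 7984 values or means equal within 0.001). It also holds a column with the authors' own fold change, which was not used. Of 159 low values, 47 (29.6%) lay within 0.15 of a whole multiple of the lowest value of their gene, so no read counts were recovered and depth is unknown. Of 998 identifiers, 877 matched RefSeq's gene table for assembly Da-Ae, used for matching and gene order only.

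Drought was compared with control in limma 3.58.1 (R 4.3.3) on log2(FPKM + 1), with the 6 G67 libraries, without an intensity trend, and with Benjamini-Hochberg adjustment over 998 genes. G59 was left out of the fit because many of its values are near 0, and their small spread on the log scale would be shared. In addition, 19 pairs of genes had identical values in all G67 libraries but 0 of these pairs did in G59, and none of 16 such sets in G59 was identical in G67, so rows of the 2 genotypes may not stand for the same gene. When the test was tried for this comparison on data made with known changes in the 998 genes, 89 of 100 genes changed by 1.5 on the log2 scale and 100 of 100 changed by 3 were called, with 2 of 798 unchanged genes. With no change put in, 0 of 998 were called. The made data had noise that was independent between genes and libraries. They lacked shifts shared by a whole library and any choice of rows, so they do not give the error rate of the DEG calls here. Values per library were compared with exact permutation tests in Python 3.11.15 (scipy 1.17.1), and figures drawn with matplotlib 3.10.9.

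Same-numbered G67 libraries deviated together from their group means (correlations across genes of 0.438, 0.190 and 0.194 for replicates 1, 2 and 3, against -0.335 to 0.153 between unlike numbers). Deviations from a group mean sum to 0, so this contrast is partly built in and does not show that the libraries were paired. The numbers were used as pairs for description and as a block in an alternative fit, while the main fit did not use them. The libraries, lists and rules were chosen with earlier results of these data known. Genes named are the listed candidates of the study, the 2 largest rises and falls per level class among DEGs with separate groups and the same sign in 3 pairs, the 3 highest genes at 0 in a single group, the 5 most abundant genes, and the 2 most and 2 least variable of at least 10 FPKM. Lists by gene description, subgenome counts, promoter motifs and pairs by protein similarity were planned and not run, as the reference used here holds no descriptions or sequences and is another assembly than that used for mapping.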

Additional observations from a re-analysis of the deposited data

How the results depend on the processing

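Alternatives were a pseudocount of 0.1, a filter on means under 1 FPKM, scaling by median ratios, quantile normalization, all 4 groups in 1 fit, the replicate block, an intensity trend, the adjusted p alone, leaving out each library and, chosen after seeing the data, counting rows with identical values once (433 DEGs). DEGs numbered 419 to 571 under the settings with all libraries and both thresholds, and 352 to 521 with a library left out (255 to 311 rises, 97 to 210 falls). Falls numbered 87 with median-ratio scaling. With the adjusted p alone, 877 genes differed, 456 of them lower. With the replicate block there were 446 DEGs, which included the 440 without it and, of the genes named, added only PAL1.

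The share of DEGs that rose moved as follows. Under 1 FPKM it was 89.5%, 63.0% with a pseudocount of 0.1, 100% with median-ratio scaling and 10% after quantiles were equalized. From 1 to 10 FPKM it was 71.1%, 84% after the median-ratio step and 43.5% after the quantile step. From 10 to 100 FPKM it was 66.3%, and 79.3% with median-ratio scaling. With a library left out, it was between 57.4% (without drought replicate 1) and 70.75% (without drought replicate 3). At 100 FPKM and over it was 40.5%, 63.0% with either scaling, and with a library left out between 27.8% (without drought replicate 1) and 55.2% (without drought replicate 3). The cause was not tested. Genes at 0 only under drought numbered 3 to 5 with a library left out (5 without drought replicate 2). LOC106348692 reversed to 0.12 with median-ratio scaling. Of 25 named DEGs, 17 kept their call and direction in every alternative run.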

Other observations

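Neighbouring genes were compared for direction. In the gene order of the RefSeq table, 93 pairs of listed genes were adjacent protein-coding genes. Both genes changed in the same direction in 64 of these pairs (68.8%), against 50.9% over all pairs of listed genes, and the log2 fold changes of the 2 genes had a Pearson correlation of 0.48 across pairs. In 12 pairs both genes rose, in 10 both fell, and in 1 pair a rise stood beside a fall. Except for LOC106354293 with BNAA07G31010D, the pairs in which both fell came from a single stretch. It ran over LOC106354085 to LOC106354115 with BNAA08G00150D, BNAA08G00220D and BNAA08G00370D, and it held the falls LOC106354101 and LOC106354107 named above. The pairs with both genes lower are thus not spread over separate places. The 93 pairs share their libraries, some hold a common gene, and adjacent copies may share reads. This is therefore a description without a test, chosen after the data had been seen. None of the 93 pairs had identical values.

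In 19 pairs of listed genes, 38 genes in all, the values were identical in the 6 G67 libraries. In 13 of the pairs the NCBI numbers were at most 10 apart, as for LOC106352081 and LOC106352082, which both fell (log2 fold change -1.18), and for LOC106349416 and LOC106349420, which both rose (log2 fold change 1.02). The pairs held 14 DEGs of 38 genes (44.1% over all listed genes), 4 rises (29.7%) and 10 falls (14.4%), and 20 of their 38 genes matched the RefSeq table. Both genes of a pair repeat the same values, so the 38 genes hold only 19 separate sets of values. The counts of DEGs, rises and falls are thus doubled and too small to be set against the shares of the list.

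Of the 12 genes with a difference of at least 1 on the log2 scale and an adjusted p above 0.05 in limma, several had 1 library far from the others. LOC106352879 was listed at 0 in 5 libraries and at 21.2 FPKM in drought replicate 3. LOC106346561 was listed at 0 in 5 libraries and at 15.9 FPKM in control replicate 1, and LOC106353951 had 13.05 FPKM in control replicate 2 and at most 0.31 FPKM elsewhere. These 3 were named after their values had been seen.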
